A study of Danio rerio with 30 samples.

Results

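The genes described here encode proteins that bind the poly(A) tail or that keep maternal mRNAs silent in the egg and the early embryo. They are ybx1, cpeb1b, pabpc1a, pabpc1b, pabpc1l, pabpc4, lsm14b and eif4enif1, 8 of the 35117 genes that every library listed, and they were taken by gene name from the RNA-seq profiles of zebrafish embryos. Vertebrate eggs store mRNAs that are translated only later. In Xenopus oocytes the protein CPEB1 binds an element in the 3′ untranslated region and holds the mRNA with a short tail, together with 4E-T (encoded by eif4enif1), an Sm-like protein of the LSM14 family and the cap-binding protein eIF4E. When CPEB1 is phosphorylated, the poly(A) polymerase GLD-2 lengthens the tail, cytoplasmic poly(A)-binding proteins occupy it and translation starts. Y-box proteins such as Ybx1 coat stored mRNAs and repress their translation. In zebrafish most mRNAs are maternal until the embryo's own genome is switched on and many maternal mRNAs are cleared, the maternal-to-zygotic transition (MZT).

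Wild-type embryos were staged at hourly intervals between 0 and 8 hours post-fertilization (hpf), and their RNA was sequenced after ribosomal RNA depletion (Ribo-Zero, 9 libraries) and after poly(A) selection with oligo dT (9 libraries). Ribo-Zero libraries hold mRNAs whatever their tail length, whereas poly(A) libraries hold those that the oligo dT captured. A further 12 poly(A) libraries, every 0.5 h from 2 to 7.5 hpf, came from embryos that received 1 nl of alpha-amanitin at 200 ng/μl at the 1-cell stage, a toxin that blocks RNA polymerases II and III and so the transcription of the embryo's genome. Sets of 25 whole embryos were collected at 28 °C, the strain was not given in the sources used here, and no library came from embryos injected without the toxin, so injection and toxin cannot be told apart. Each profile has 1 library per time point, and hours stood in for replicates in every test, so the errors below hold the change between hours as well as technical scatter. Levels are in TPM, a unit that corrects for gene length and gives all libraries an equal total (1000000). A level is therefore a share of the RNA in a library, and fewer copies of an mRNA per embryo cannot be told apart from a larger pool of other RNA, nor fewer cells of a type from less RNA per cell.

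Between 11919 and 16194 genes per library reached a TPM of at least 1, and read numbers were not given in the sources used here. Mitochondrially encoded transcripts took 1.15% to 1.87% of the Ribo-Zero, 6.30% to 11.4% of the wild-type poly(A) and 7.67% to 14.1% of the alpha-amanitin TPM. The zygotic markers went with the labels for time and treatment, and the maternal markers with those for time. All 4 maternal markers (buc, mos, zar1, zar1l) were lower at 6 to 8 hpf than at 0 to 2 hpf in Ribo-Zero, and all 5 zygotic markers (ta, vox, sox32, tbx16, krt4) were higher. At 4 to 7 hpf the same 5 zygotic markers were lower in alpha-amanitin than in wild-type embryos, with a median log2 difference of -9.51. Of the 4 maternal markers, buc (4.84) and mos (1.81) were called higher in alpha-amanitin. zar1 (0.85, limma adjusted p = 0.0502) and zar1l (0.42, adjusted p = 0.411) were not called. Both zar1 and zar1l are also in the list of masking partners below.

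Of the 8 genes, 7 were abundant enough to be tested (on average 1 TPM or more in the libraries of a fit). The summed TPM of the 8 genes was 0.149% of the Ribo-Zero library at 0 hpf and 0.322% at 8 hpf, with the lowest share, 0.124%, at 4 hpf. Wild-type poly(A) libraries held 0.315% in the first hour sampled (0 hpf) and 0.767% in the last (8 hpf). In alpha-amanitin libraries the sum lay between 0.295% and 0.463%. Most of this sum was ybx1 and pabpc1a. The genes fell into separate courses in wild type, with ybx1 and pabpc1a highest at 8 hpf in both profiles and cpeb1b, lsm14b and pabpc1l lowest there, while in alpha-amanitin every one of the 7 genes stayed within a 2.47-fold range. In wild-type poly(A), though, pabpc1a at 8 hpf (1867 TPM) was close to its level at 2 hpf (1783 TPM).

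**Figure D1:**
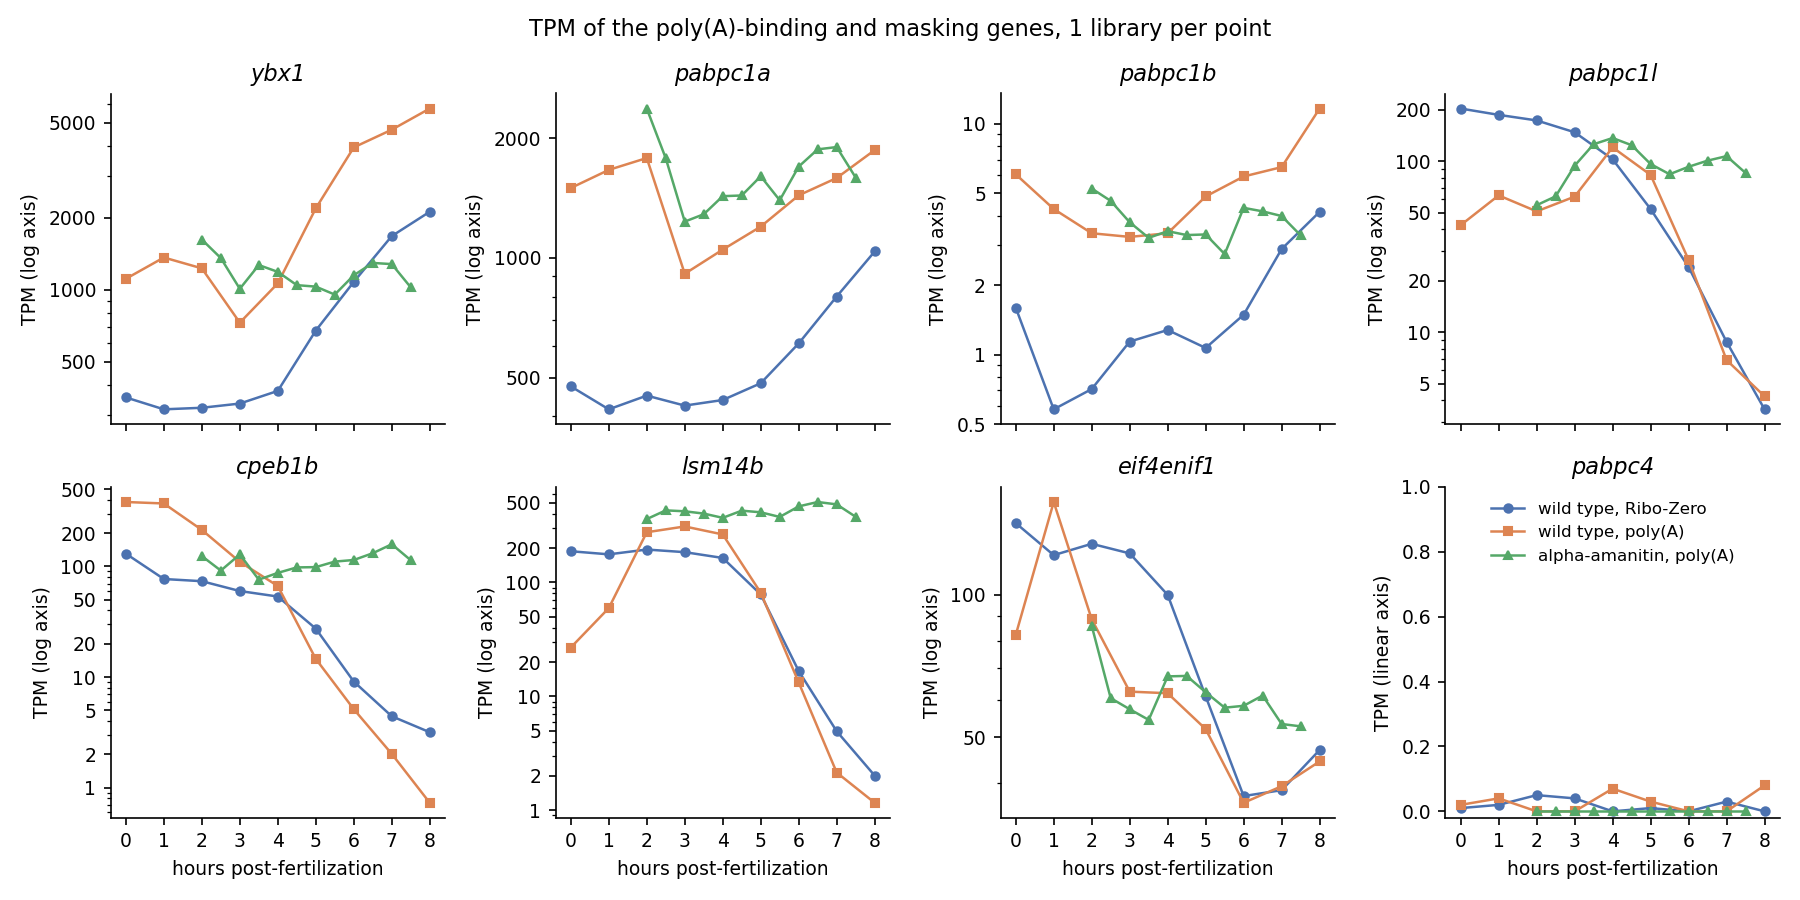
TPM (log axis; linear axis for pabpc4) of each gene against hours post-fertilization, with 1 library per point, in wild-type Ribo-Zero (circles), wild-type poly(A) (squares) and alpha-amanitin poly(A) (triangles) embryos. ybx1 reached 2122 TPM in Ribo-Zero at 8 hpf, lsm14b, cpeb1b and pabpc1l were at 3.55 TPM or lower there, and the alpha-amanitin libraries lack the late decline of these 3 genes.

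Y-box binding protein 1, encoded by ybx1 (ENSDARG00000004757), has a cold-shock domain and packages maternal mRNAs. Its Ribo-Zero levels from 0 to 8 hpf were 354, 316, 321, 334, 377, 675, 1079, 1678 and 2122 TPM. The level was thus flat until 4 hpf and 6.72-fold above its minimum at 8 hpf, where ybx1 held rank 62 of all genes by level. In wild-type poly(A) libraries the levels from 0 to 8 hpf were 1112, 1365, 1229.6, 728, 1064, 2192, 3946, 4679 and 5738 TPM. The lowest library was the one at 3 hpf, and at 8 hpf ybx1 held rank 15. In alpha-amanitin libraries the lowest level was 955 TPM at 5.5 hpf, the median 1169 TPM and the highest 1623 TPM at 2 hpf, so that no library of the 12 reached the wild-type levels of 5 to 8 hpf.

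Cytoplasmic polyadenylation element binding protein 1b, encoded by cpeb1b (ENSDARG00000008454), is the zebrafish counterpart of the CPEB1 of Xenopus oocytes. In Ribo-Zero libraries from 0 to 8 hpf it was at 130.3, 76.9, 73.5, 59.9, 53.4, 27.4, 9.10, 4.42 and 3.17 TPM. The wild-type poly(A) libraries gave 382, 370.3, 214, 109.9, 66.5, 14.6, 5.12, 2.02 and 0.73 TPM over the same hours. Each hour was lower than the one before in both profiles, and the poly(A) range was 523-fold against 41.1-fold in Ribo-Zero. In alpha-amanitin libraries cpeb1b ranged from 75.9 TPM at 3.5 hpf to 158 TPM at 7 hpf, with a median of 112 TPM and with no such course. The paralogue cpeb1a was at most 0.51 TPM in Ribo-Zero, 1.59 TPM in wild-type poly(A) and 1.29 TPM in alpha-amanitin libraries and was not tested, so cpeb1b carried nearly all of the cpeb1 mRNA. Of the summed TPM of cpeb1a, cpeb1b, cpeb2, cpeb3, cpeb4a and cpeb4b, cpeb4a held 59.4% in Ribo-Zero at 0 hpf and cpeb1b 30.5%. In wild-type poly(A) at 0 hpf the shares were 13.5% and 82.3%, and at 1 hpf 17.3% and 80.9%. From 2 hpf on cpeb4a held the larger share there, with 57.6% against 37.3% at 2 hpf and 78.6% against 1.79% at 8 hpf. In alpha-amanitin libraries cpeb4a held 66.6% to 75.7% and cpeb1b 14.6% to 27.9%.

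LSM14B, encoded by lsm14b (ENSDARG00000025386), is an Sm-like protein of repressed mRNPs and P-bodies. Its Ribo-Zero levels from 0 to 8 hpf were 188, 177, 195, 185, 164, 78.5, 16.7, 4.93 and 2.01 TPM, a plateau up to 4 hpf followed by ever lower libraries, and its rank among all genes went from 622 to 12627. In wild-type poly(A) libraries the levels were 26.8, 59.5, 276, 310.4, 264, 81.3, 13.2, 2.14 and 1.16 TPM. Here the highest libraries were those at 2, 3 and 4 hpf, and the library at 0 hpf was among the low ones although Ribo-Zero was at its plateau. The alpha-amanitin libraries held 360.3 TPM at 2 hpf, the lowest of the 12, a median of 418 TPM and 509 TPM at 6.5 hpf, the highest, so lsm14b was higher in each of them than in any wild-type library.

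Of the summed TPM of the 3 lsm14 genes, lsm14b made up 50.4% in Ribo-Zero at 0 hpf and 56.1% at 2 hpf, and 11.4% and 1.72% at 6 and 8 hpf. Its paralogue lsm14aa ranged from 102.5 TPM at 0 hpf to 52.0 TPM at 8 hpf in the Ribo-Zero libraries and was called lower at 6 to 8 than at 0 to 2 hpf (log2 difference -0.58, SE 0.15, limma adjusted p = 0.00950). lsm14ab lay between 58.1 and 82.3 TPM and did not pass (-0.29, adjusted p = 0.0621). Among the wild-type poly(A) libraries the share of lsm14b was 8.06% in the first (0 hpf), 49.5% at 3 hpf and 0.714% in the last (8 hpf). In alpha-amanitin libraries it was between 43.1% (7.5 hpf) and 59.8% (3.5 hpf).

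The eIF4E transporter 4E-T, which binds eIF4E and blocks its contact with eIF4G, is encoded by eif4enif1 (ENSDARG00000016177). In Ribo-Zero libraries from 0 to 8 hpf it was at 142, 121, 128, 122, 99.9, 61.0, 37.5, 38.6 and 47.0 TPM. The level at 6 to 8 hpf was lower than at any earlier hour but did not approach 0, unlike that of cpeb1b or lsm14b. The wild-type poly(A) libraries gave 82.2, 157, 88.7, 62.4, 61.9, 52.0, 36.3, 39.4 and 44.4 TPM. The library at 1 hpf stood highest there. In alpha-amanitin libraries eif4enif1 ranged from 52.7 TPM at 7.5 hpf to 85.9 TPM at 2 hpf, with a median of 59.3 TPM.

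The cytoplasmic poly(A)-binding proteins coat the tail, protect it and bind eIF4G. The most abundant of them was pabpc1a (ENSDARG00000017219), at 476, 417, 451, 426, 439.6, 484, 610.0, 800.2 and 1038 TPM in Ribo-Zero from 0 to 8 hpf. Its wild-type poly(A) levels were 1499, 1665, 1783, 913, 1049.8, 1199, 1437, 1589 and 1867 TPM, again with the lowest library at 3 hpf. Alpha-amanitin libraries ranged from 1234 TPM at 3 hpf to 2374 TPM at 2 hpf around a median of 1598 TPM, and thus overlapped wild type widely. The near relative pabpc1b (ENSDARG00000021140) was at 0.58 to 4.16 TPM in Ribo-Zero, 3.24 to 11.7 TPM in wild-type poly(A) and 2.73 to 5.25 TPM in alpha-amanitin libraries. That is 0.0961% to 0.619% of the TPM of the 4 genes in any library, and since the authors' quantification divides reads that match both genes, the level of pabpc1b is uncertain. pabpc4 (ENSDARG00000059259), known in humans as the inducible poly(A)-binding protein, was at most 0.08 TPM in wild type and listed at 0 in all 12 alpha-amanitin libraries, so it was not tested.

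The embryonic poly(A)-binding protein of Xenopus and mouse oocytes, ePAB, corresponds to pabpc1l (ENSDARG00000002597). Its Ribo-Zero levels from 0 to 8 hpf were 203, 186, 173, 148, 103, 52.5, 24.1, 8.80 and 3.55 TPM, each lower than the one before. In wild-type poly(A) libraries it was at 42.3, 63.1, 50.9, 62.1, 120.5, 83.1, 26.5, 6.89 and 4.23 TPM, with the peak at 4 hpf, when the Ribo-Zero level was already below its start. Alpha-amanitin libraries ran from 55.3 TPM at 2 hpf to 137 TPM at 4 hpf and stayed between 83.9 and 107 TPM from 5 hpf on (96.2, 83.9, 92.8, 101, 107 and 85.4 TPM). Among the poly(A) libraries, wild-type and alpha-amanitin embryos thus both had their highest pabpc1l at 4 hpf, and they parted after 5 hpf.

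The makeup of the poly(A)-binding pool depended on the way RNA was selected. pabpc1l was 29.8% of the summed TPM of the 4 poly(A)-binding genes in Ribo-Zero at 0 hpf and 18.9% at 4 hpf, and then 3.79% and 0.339% at 6 and 8 hpf. The wild-type poly(A) libraries gave 2.73% at 0 hpf, with a peak of 10.3% at 4 hpf and a minimum of 0.225% at 8 hpf, so the early share was about an order of magnitude below that in Ribo-Zero. In alpha-amanitin libraries the lowest share was 2.27% (2 hpf) and the highest 8.87% (3.5 hpf), with 5.08% at 7.5 hpf. pabpc1a made up nearly all of the rest.

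**Figure D2:**
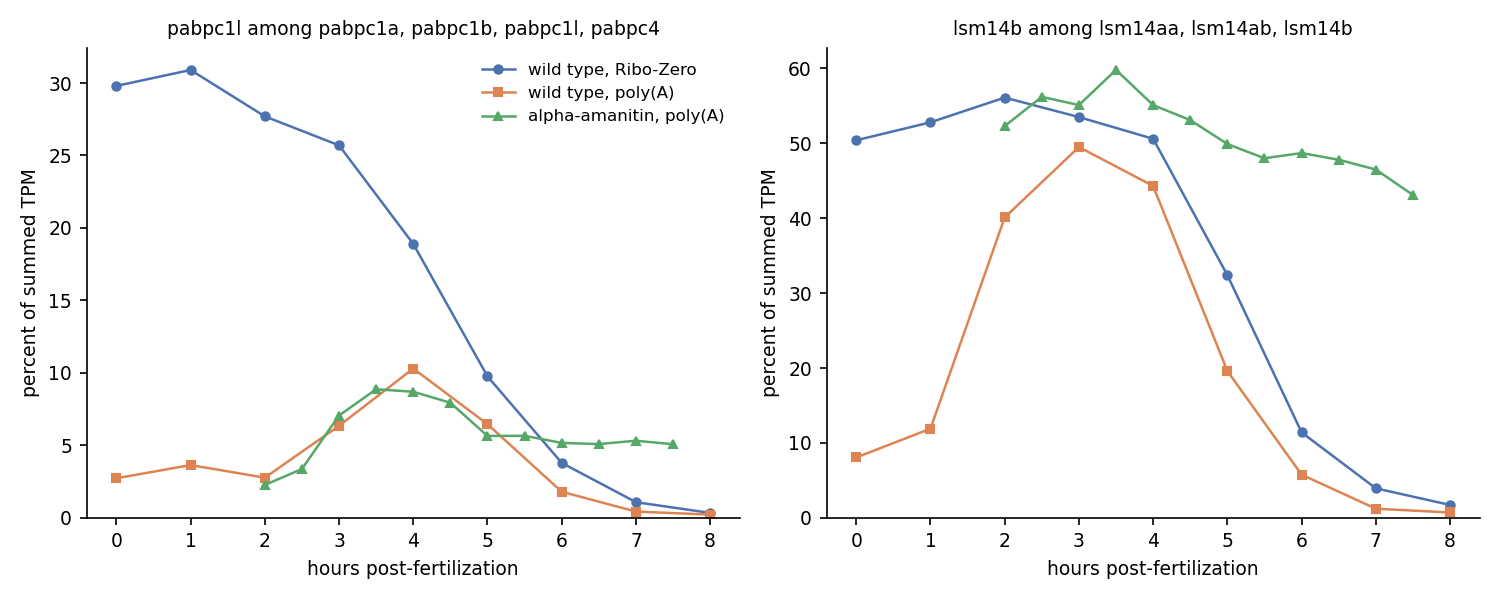
Percent of the summed TPM of a gene family held by pabpc1l (left, among pabpc1a, pabpc1b, pabpc1l and pabpc4) and by lsm14b (right, among lsm14aa, lsm14ab and lsm14b) against hours post-fertilization, with 1 library per point and symbols for the 3 profiles. In Ribo-Zero pabpc1l went from 29.8% to 0.339% and lsm14b from 50.4% to 1.72%. In poly(A) libraries at 7 hpf they held 0.43% and 1.22% in wild type, and 5.32% and 46.5% in alpha-amanitin embryos.

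Change across the MZT in total RNA was tested as log2(TPM + 0.1) in Ribo-Zero, with 6, 7 and 8 hpf set against 0, 1 and 2 hpf (3 against 3, limma, Benjamini-Hochberg adjustment over the 15835 genes tested). Of the 7 genes, 4 were lower and 3 were higher, where 57.7% of all genes tested were lower and 24.7% higher. Their median log2 difference was -1.67, beside -1.01 over all genes tested. lsm14b fell by 5.05 on the log2 scale (SE 0.66, adjusted p = 0.000285, mean TPM 186 to 7.87), pabpc1l fell by 4.34 (SE 0.60, adjusted p = 0.000386, 188 to 12.1) and cpeb1b fell by 4.14 (SE 0.41, adjusted p = 7.14e-05, 93.6 to 5.56). In unscaled TPM the decrease of these 3 genes was several times the median decrease of all genes and larger than the spread between hours. The multiple rests on that scale, since the median of all genes was 0.56 after the scaling to the maternal genes described next.

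In the same comparison eif4enif1 fell by 1.67 (SE 0.14, adjusted p = 3.78e-05, mean TPM 130 to 41.0). ybx1 rose by 2.25 (SE 0.24, adjusted p = 0.000109, 330 to 1626), and pabpc1a by 0.83 (SE 0.20, adjusted p = 0.00599, 448 to 816). Early and late libraries did not overlap for any of these 6 genes. How many of all genes tested had no overlap was not counted, so this does not set these genes apart. pabpc1b rose by 1.48 (SE 0.51, adjusted p = 0.0291, 0.963 to 2.84), but the call was lost without the library at 1, 2, 7 or 8 hpf (1.21, 1.34, 1.41 and 1.15, lowest adjusted p = 0.0743). Scaling each library to the maternal genes sets their median change near 0 by construction (from -1.49 to -0.06 here). Scaled values, here and below, therefore place a gene relative to the maternal genes. The median of all genes moved by 1.57, from -1.01 to 0.56. The split over all genes went from 9141 lower and 3912 higher to 4153 lower and 7644 higher. All 7 genes kept their direction, and eif4enif1 was no longer called (-0.22, limma adjusted p = 0.215).

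Set beside the 10874 maternal genes (mean TPM of at least 5 in Ribo-Zero at 0 and 1 hpf), the change from 2 to 6 hpf placed the genes as follows, with no error since each hour has 1 library. The median maternal gene changed by -1.33 on the log2 scale in Ribo-Zero. lsm14b changed by -3.54, with 7.21% of maternal genes lower, cpeb1b by -3.00 (13.7% lower), pabpc1l by -2.84 (16.3% lower) and eif4enif1 by -1.77 (38.4% lower). At the other end stood pabpc1a at 0.44, above 90.6% of maternal genes, and ybx1 at 1.75, above 97.9%. In wild-type poly(A) libraries the maternal median was -0.93. There pabpc1l was at -0.94 and pabpc1a at -0.31, with 49.8% and 63% of maternal genes lower, so their Ribo-Zero places did not hold. lsm14b (-4.37), cpeb1b (-5.36) and ybx1 (1.68) stayed near the ends, and eif4enif1 was at -1.29. In alpha-amanitin libraries, also poly(A)-selected, the 7 tested genes changed by -0.56 to 0.74 over the same hours, around a maternal median of 0.08.

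How well an mRNA is captured by its tail was followed as the log2 ratio of its poly(A) to its Ribo-Zero level at the same hour in wild type. The median of the maternal genes started at -1.67 (0 hpf) and -1.08 (1 hpf), reached -0.01 by 2 hpf and lay between 0.17 and 0.51 from 3 hpf on. lsm14b and pabpc1l began below this median, at -2.80 and -2.26. lsm14b reached 0.50 by 2 hpf and its highest value, 0.75, at 3 hpf, and was down to -1.17 at 7 hpf. pabpc1l stayed at -1.25 or lower up to 3 hpf, passed to 0.23 at 4 hpf and had its highest value, 0.66, at 5 hpf. The ratio thus passed 0 at different hours for the 2 mRNAs. For lsm14b the poly(A) level was 0.143 of the Ribo-Zero level at 0 hpf and 1.68 times it at 3 hpf.

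cpeb1b went the other way. Its log2 ratio was 1.55, 2.27, 1.54, 0.87 and 0.32 over 0 to 4 hpf and between -1.98 and -0.82 over 5 to 8 hpf, so that its mRNA was enriched 4.81-fold in poly(A) over Ribo-Zero at 1 hpf and was at 0.254 of it at 8 hpf. ybx1 and pabpc1a were enriched at every hour, with log2 ratios of 1.12 to 2.11 and 0.85 to 2.00, as was pabpc1b (1.15 to 2.69). Those of eif4enif1 lay between -0.97 and 0.37 and showed no steady course.

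**Figure D3:**
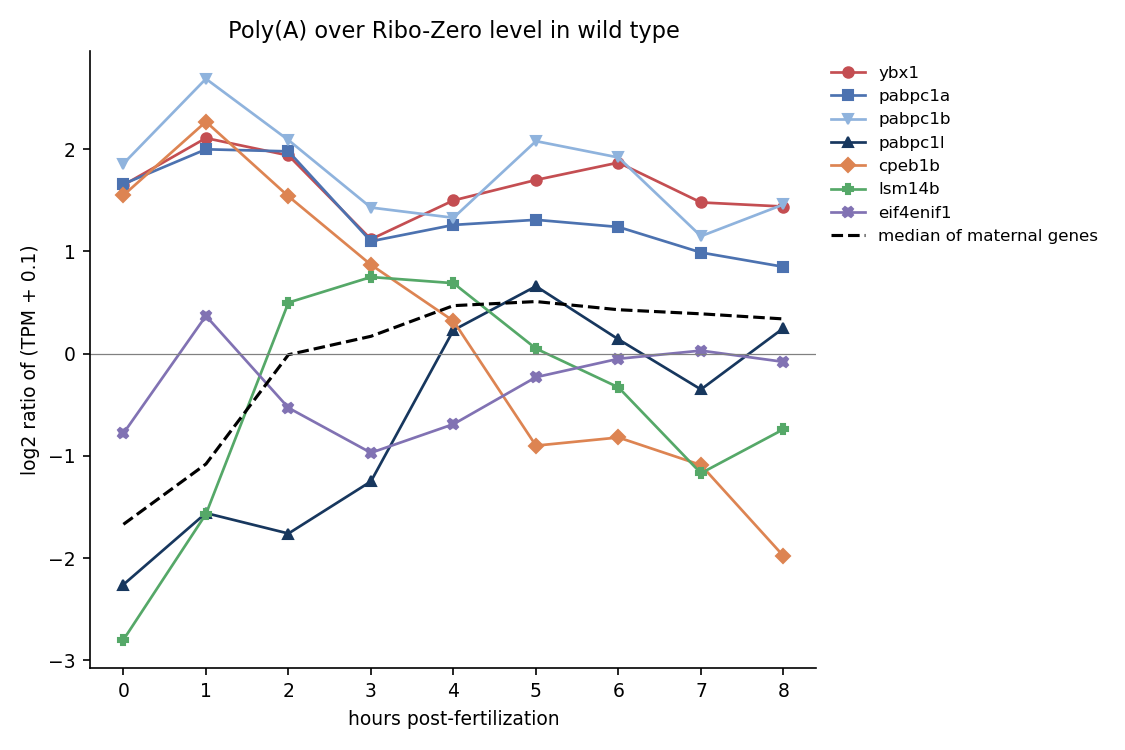
Log2 ratio of poly(A) to Ribo-Zero TPM (each + 0.1) in wild-type embryos against hours post-fertilization, 1 pair of libraries per point, for the 7 tested genes and, as a dashed line, the median of the maternal genes. lsm14b and pabpc1l start below the median at -2.80 and -2.26, cpeb1b starts above it and ends at -1.98, and ybx1 and pabpc1a stay above it throughout.

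Tested at 6, 7 and 8 hpf against 0, 1 and 2 hpf (3 ratios against 3, limma, 15902 genes), the ratio was lower for 2 of the 7 genes and higher for 1, where 4.28% of all genes were lower and 33.6% higher. The median difference was -0.30 for the 7 genes and 1.05 for all genes. cpeb1b fell by 3.08 (SE 0.44, adjusted p = 0.00332), from a mean log2 ratio of 1.79 to -1.30, and 0.258% of the genes tested had a lower value. pabpc1l rose by 1.87 (SE 0.37, adjusted p = 0.00845), from -1.86 to 0.01. This was 0.82 above the median of all genes, and 72.5% of the genes tested had a lower value, so pabpc1l was not near the end. The calls of cpeb1b and pabpc1l both held without any 1 hour. pabpc1a fell by 0.86 (SE 0.23, adjusted p = 0.0221), but not past the threshold without 1, 6, 7 or 8 hpf (adjusted p of up to 0.103).

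The other 4 genes did not pass. Their differences in log2 ratio were -0.30 for ybx1 (95% interval -0.84 to 0.23, adjusted p = 0.317), -0.70 for pabpc1b (-1.75 to 0.35, adjusted p = 0.243), 0.28 for eif4enif1 (-0.59 to 1.15, adjusted p = 0.569) and 0.54 for lsm14b (-1.25 to 2.33, adjusted p = 0.593). The value of lsm14b turned on 2 hpf, since without that hour it was 1.44 (adjusted p = 0.0262), and its paralogue lsm14aa fell by 1.09 (SE 0.31, adjusted p = 0.0285). Scaling to the maternal genes moved the median of all genes by 1.01 and the split from 680 lower and 5339 higher to 2872 and 2876. Under it pabpc1l was at 0.72 and not called (adjusted p = 0.167), ybx1 and pabpc1b were called lower (-1.46, adjusted p = 0.0487, and -1.72, adjusted p = 0.0248), and lsm14b and eif4enif1 changed sign.

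Whether the course of an mRNA differed when transcription was blocked was tested as a difference in slope on the log2(TPM + 0.1) scale, alpha-amanitin minus wild type, over the poly(A) libraries of 2, 3, 4, 5, 6 and 7 hpf (6 against 6, limma, 15782 genes). Of the 7 genes, 1 had a lower and 3 a higher slope in alpha-amanitin, where 23.1% of all genes were lower and 29.4% higher. The median was 0.14 per hour for the 7 genes and 0.12 for all genes. For lsm14b the slope was -1.43 per hour in wild type and 0.08 in alpha-amanitin, a difference of 1.51 (SE 0.25, adjusted p = 0.000867). cpeb1b had slopes of -1.39 and 0.04, a difference of 1.43 (SE 0.13, adjusted p = 0.000307). In alpha-amanitin poly(A) libraries both mRNAs were thus nearly level over these hours. No Ribo-Zero library came from treated embryos. In every comparison with alpha-amanitin, a change in mRNA amount therefore cannot be told apart from a change in capture by the tail. In wild type the log2 ratio of poly(A) to Ribo-Zero for cpeb1b was 1.54 at 2 hpf and -1.09 at 7 hpf.

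ybx1 had a slope of 0.51 per hour in wild type and -0.04 in alpha-amanitin, a difference of -0.55 (SE 0.13, adjusted p = 0.00383). The calls of ybx1, cpeb1b and lsm14b held without any 1 hour. pabpc1l had slopes of -0.53 and 0.12, a difference of 0.65 (SE 0.25, adjusted p = 0.0446), which was not called without 3, 6 or 7 hpf (0.70, 0.69 and 0.30, adjusted p of 0.0775, 0.0885 and 0.406) or after scaling to the maternal genes (0.41, adjusted p = 0.0953). The slope differences of pabpc1a (-0.04, 95% interval -0.29 to 0.21, adjusted p = 0.792), pabpc1b (-0.26, -0.55 to 0.03, adjusted p = 0.120) and eif4enif1 (0.14, -0.06 to 0.34, adjusted p = 0.208, or -0.10 after scaling) did not pass. Scaling moved the median of all genes by 0.27 and the split from 3644 lower and 4635 higher to 5847 and 2952. The paralogues lsm14aa (0.49, SE 0.09, adjusted p = 0.00144) and lsm14ab (0.29, SE 0.09, adjusted p = 0.0160) also had higher slopes in alpha-amanitin.

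Hour by hour, the log2 ratio of alpha-amanitin to wild type for lsm14b was 0.38, 0.44, 0.48, 2.35, 5.13 and 7.76 from 2 to 7 hpf, and that of cpeb1b was -0.79, 0.22, 0.39, 2.75, 4.45 and 6.23. Both separated from wild type between 4 and 5 hpf. At 7 hpf the treated poly(A) level was 217 times and 74.8 times that of wild type (TPM + 0.1). For pabpc1l the ratios were 0.12, 0.60, 0.18, 0.21, 1.80 and 3.94, so that it separated an hour later and was 15.3 times higher at 7 hpf. ybx1 went from 0.40, 0.47 and 0.16 at 2 to 4 hpf to -1.09, -1.78 and -1.87 at 5 to 7 hpf. The median of the maternal genes was 0.03, 0.26, 0.16, 0.32, 0.91 and 1.12.

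**Figure D4:**
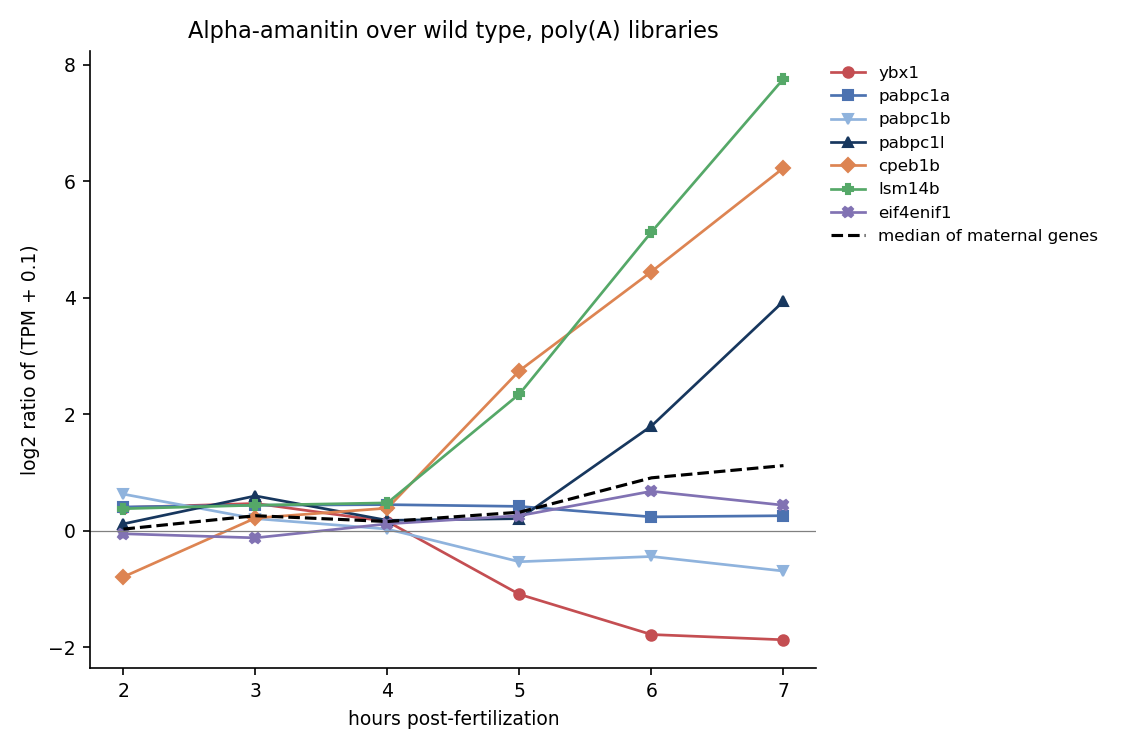
Log2 ratio of alpha-amanitin to wild-type poly(A) TPM (each + 0.1) at 2 to 7 hpf, 1 pair of libraries per point, for the 7 tested genes, with the median of the maternal genes dashed. From 5 hpf on lsm14b and cpeb1b lie far above the median (7.76 and 6.23 at 7 hpf), pabpc1l follows at 3.94, and ybx1 lies below 0 at -1.87.

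Averaged over 4, 5, 6 and 7 hpf (4 against 4, limma with the hour as a covariate, 16028 genes), alpha-amanitin embryos had 1 of the 7 genes lower and 3 higher, where 21.8% of all genes were lower and 23.8% higher. The median log2 difference was 0.37 for the 7 genes and 0.40 for all genes. lsm14b was higher by 3.93 (SE 0.95, adjusted p = 0.0144, mean TPM 433 against 90.2) and cpeb1b by 3.45 (SE 0.76, adjusted p = 0.0104, 115 against 22.1). ybx1 was lower, with a difference of -1.14 (SE 0.30, adjusted p = 0.0184, 1163 against 2970). These averages depend on single hours: lsm14b and cpeb1b were not called without 6 hpf (3.53, adjusted p = 0.124, and 3.12, adjusted p = 0.103) or 7 hpf (2.65, adjusted p = 0.0779, and 2.53, adjusted p = 0.0692), and ybx1 not without 5, 6 or 7 hpf (-1.16, -0.93 and -0.90, adjusted p of 0.0709, 0.157 and 0.124). With the hour as a factor, which pairs the libraries of an hour, cpeb1b kept its call (adjusted p = 0.0458), while lsm14b (adjusted p = 0.0548), ybx1 (adjusted p = 0.0639) and pabpc1a (adjusted p = 0.121) lost theirs.

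pabpc1a was also called higher in alpha-amanitin, by 0.34 (SE 0.12, adjusted p = 0.0414), but it was lost without any 1 of the 4 hours and was at -0.29 after scaling to the maternal genes, so its direction rests on the scale. Scaling moved the median of all genes by 0.68 and the split from 3495 lower and 3811 higher to 4745 and 1654. pabpc1l, at 1.53 (SE 0.56, 95% interval 0.27 to 2.80, adjusted p = 0.0503), did not pass with all hours, passed without 4 hpf (1.98, adjusted p = 0.0281) and was at 0.73 without 7 hpf, with adjusted p of up to 0.229 over the hours left out. The values of pabpc1b (-0.41, 95% interval -1.15 to 0.33, adjusted p = 0.298) and eif4enif1 (0.37, -0.13 to 0.88, adjusted p = 0.179, or -0.26 after scaling) did not pass. The comparisons with alpha-amanitin share libraries with each other, and the poly(A) to Ribo-Zero ratios share the Ribo-Zero libraries with the comparison in total RNA, so they are not independent.

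**Figure D5:**
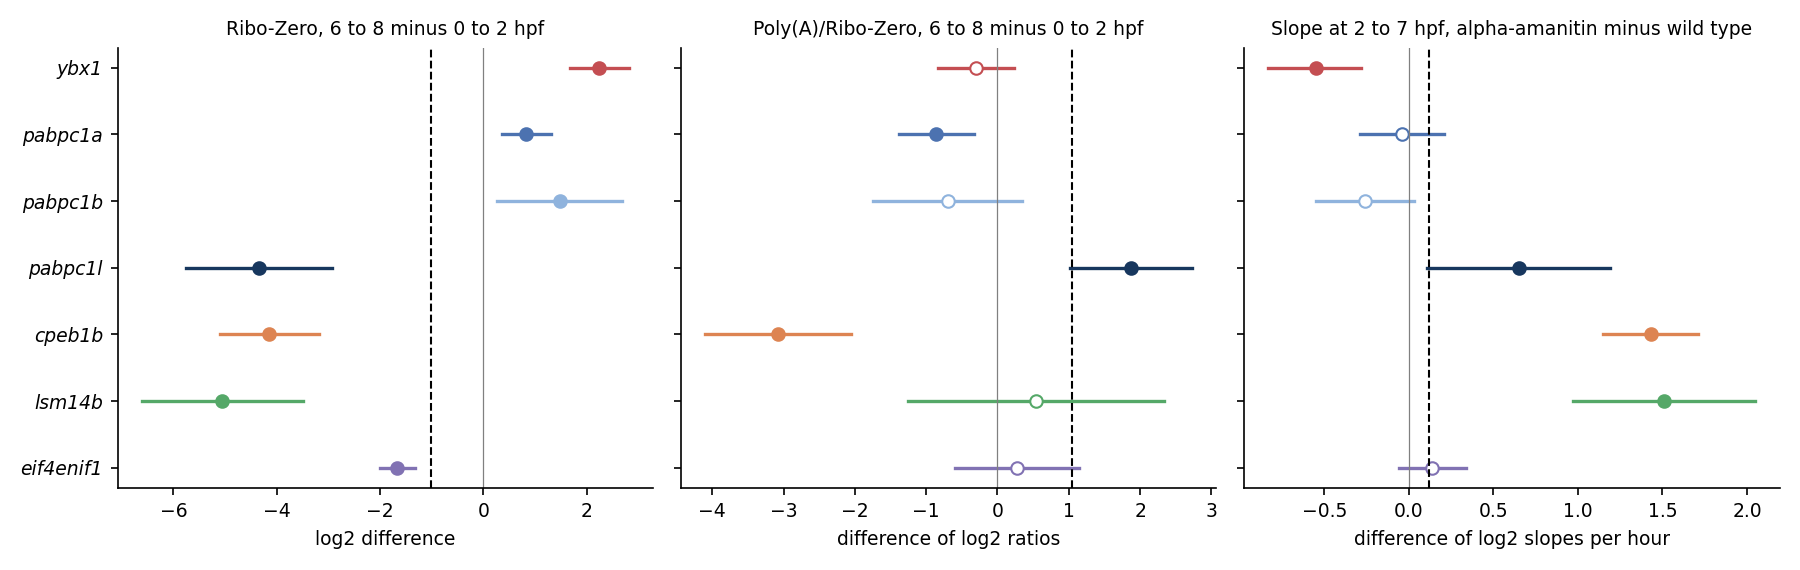
Difference and 95% interval of each tested gene in 3 comparisons, namely Ribo-Zero at 6 to 8 against 0 to 2 hpf (log2), the poly(A) to Ribo-Zero ratio over the same hours (log2), and the slope at 2 to 7 hpf in alpha-amanitin minus wild type (log2 per hour). Filled points passed an adjusted p of 0.05, and the dashed line is the median of all genes tested (-1.01, 1.05 and 0.12), from which cpeb1b lies far off in each panel (-4.14, -3.08 and 1.43). The ratio shares libraries with each of the other comparisons, so the panels are not independent.

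Within the 12 alpha-amanitin libraries, slopes of ln(TPM + 0.1) on time were fitted from 2 to 7.5 hpf (limma, 13977 genes). None of the 7 genes was called, where 37.5% of all genes had a lower and 23.7% a higher slope, and none had an unadjusted p under 0.05. Slopes ran from -0.0436 per hour for eif4enif1 (SE 0.0220, adjusted p = 0.101) and -0.0350 for ybx1 (SE 0.0244, adjusted p = 0.225) to 0.0481 for pabpc1l (SE 0.0402, adjusted p = 0.312) and 0.0483 for cpeb1b (SE 0.0306, adjusted p = 0.184). pabpc1a (0.0037, SE 0.0302), lsm14b (0.0256, SE 0.0197) and pabpc1b (-0.0336, SE 0.0356) lay between them. The median was 0.0037 for the 7 genes and -0.0338 for all genes. Scaling to the maternal genes called lsm14b (0.057, adjusted p = 0.0263) and pabpc1l (0.079, adjusted p = 0.0247) higher, and pabpc1l was also called at 2 to 4.5 hpf alone (0.381, adjusted p = 0.0166). Scaling moved the split over all genes from 5242 lower and 3308 higher to 4800 and 4491. cpeb1b was called higher without the library at 2 hpf (0.077, adjusted p = 0.0460).

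The other genes of these pathways were read from lists of known partners, given by their counts beside those of all genes above. Of 20 listed names of cytoplasmic polyadenylation (other CPEB proteins, poly(A) polymerases and cleavage factors), 16 were in the files and 13 were tested for the alpha-amanitin slope, and 4 were lower and 6 higher, with a median of 0.0242. In Ribo-Zero 10 of 15 fell and 2 rose between early and late hours, with a median of -1.18, and in the poly(A) to Ribo-Zero ratio 8 of 15 rose and none fell, with a median of 1.78. papd4, which encodes the GLD-2 poly(A) polymerase, had a slope of -0.330 per hour in alpha-amanitin (SE 0.044, adjusted p = 2.52e-05), from 21.3 TPM at 2 hpf to 4.78 TPM at 7.5 hpf. Its Ribo-Zero level fell by 2.26 (adjusted p = 1.11e-05) and its ratio rose by 2.03 (adjusted p = 0.0314). papd7, another non-canonical poly(A) polymerase, had a slope of -0.088 (SE 0.033, adjusted p = 0.0310).

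On the other side, cpeb4b, a further CPEB gene, rose in alpha-amanitin at 0.277 per hour (SE 0.038, adjusted p = 3.54e-05), from 17.5 to 83.9 TPM, while it fell by 2.57 in Ribo-Zero (adjusted p = 3.20e-05). Its slope was higher in alpha-amanitin than in wild type by 1.11 log2 per hour (adjusted p = 0.00215), so that it shared the direction of cpeb1b there. The same held for cpeb4a (limma slope difference 0.75, adjusted p = 0.00108). cpeb2 went the other way, with a slope difference of -0.94 (limma adjusted p = 0.0322). It rose by 4.20 in Ribo-Zero (adjusted p = 0.000192, mean TPM 0.307 to 8.44). cpeb3 did not pass (slope difference -0.15, adjusted p = 0.561), so the CPEB genes did not share 1 direction. papola, the canonical nuclear poly(A) polymerase, had a slope of 0.151 in alpha-amanitin poly(A) libraries (SE 0.036, limma adjusted p = 0.00239). In wild type it rose by 0.66 in Ribo-Zero (adjusted p = 0.0320), and its poly(A) to Ribo-Zero ratio rose by 2.24 (adjusted p = 0.00966). Here and below, the slopes and the Ribo-Zero changes differ in treatment, RNA selection and hours, so neither bears out the other.

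Of 21 listed partners of poly(A)-binding proteins, 16 were in the files and tested, and 4 had a lower and 7 a higher slope in alpha-amanitin (median 0.0285), 11 fell and 1 rose in Ribo-Zero (median -1.17), and 1 fell and 5 rose in the ratio (median 0.53). larp4ab, of a family that binds poly(A) and poly(A)-binding protein, had the lowest slope, -0.500 per hour (SE 0.048, adjusted p = 1.64e-06, 9.53 to 1.11 TPM), although it rose by 2.09 in wild-type Ribo-Zero (adjusted p = 0.000408). Its paralogue larp4aa rose at 0.202 (SE 0.053, adjusted p = 0.00478) and fell by 1.37 in Ribo-Zero (adjusted p = 0.000697). The slopes of atxn2, a partner of poly(A)-binding protein, and of larp1, which binds mRNAs of the translation machinery, were -0.142 (SE 0.041, adjusted p = 0.00796) and 0.161 (SE 0.026, adjusted p = 0.000117).

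Of 32 listed masking partners, 28 were in the files and 27 were tested for the slope, with 7 lower and 14 higher and a median of 0.0681. In Ribo-Zero 14 of 28 fell and 7 rose (median -0.34), and in the ratio 2 fell and 6 rose (median 0.38). zar1l, which encodes an oocyte RNA-binding protein, had a slope of -0.260 (SE 0.032, adjusted p = 1.20e-05) in alpha-amanitin and fell by 5.25 in Ribo-Zero (adjusted p = 9.64e-06), where it went from 317 TPM at 0 hpf to 4.68 TPM at 8 hpf. eif4ea, a cap-binding protein gene, had a slope of -0.215 (SE 0.055, adjusted p = 0.00404). The stress granule gene g3bp2 rose at 0.227 (SE 0.031, adjusted p = 3.23e-05) and edc3, an enhancer of decapping, at 0.149 (SE 0.030, adjusted p = 0.000771). The paralogues lsm14aa and lsm14ab rose at 0.141 (SE 0.027, adjusted p = 0.000437) and 0.0895 (SE 0.0211, adjusted p = 0.00227). Over the slope difference, 5 of 15 genes of polyadenylation, 9 of 16 partners of poly(A)-binding proteins and 7 of 28 masking partners were higher in alpha-amanitin, and 2, 2 and 3 were lower. In the average over 4 to 7 hpf 5 of 14, 6 of 16 and 4 of 28 were higher, and 1, 1 and 4 lower. Of all genes tested, 29.4% were higher and 23.1% lower for the slope difference, and 23.8% and 21.8% for the average. Whether the lists differ from these shares was not tested.

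For each gene, the genes most like it were taken by Pearson's r of log2(TPM + 0.1) over the 30 libraries, among 9208 others with a mean TPM of at least 10. The libraries share hours, selection and scaling, so r describes a shared course over these profiles and carries no test. lsm14b was closest to qsox1 (0.993) and elovl1b (0.992), cpeb1b to clcn2b (0.984) and zgc:163014 (0.978), and pabpc1l was at 0.971 with gpia. ybx1 was closest to eef1a1l2 (0.980) and tardbpl (0.979), pabpc1a to myef2 (0.978) and smarce1 (0.969), and eif4enif1 to CABZ01066813.1 (0.943) and yme1l1a (0.935). Among the genes themselves, r was 0.90 between lsm14b and pabpc1l, 0.85 between cpeb1b and lsm14b, 0.80 between cpeb1b and pabpc1l, and 0.72 between ybx1 and pabpc1a. In these pairs each gene held only place 302 to 1932 among those compared with the other, so many genes were closer. eif4enif1 was at 0.41 to 0.62 with lsm14b, pabpc1l and cpeb1b. pabpc1a was at -0.39 to 0.10 with cpeb1b, pabpc1l, lsm14b and eif4enif1, and ybx1 at -0.73 to -0.58 with the same genes. pabpc1b and pabpc4 were below the minimum level and were not compared.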

How the data were processed

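Per the labels and the study's methods, reads were demultiplexed with bcl2fastq 2.18, aligned with STAR 2.7.3a to danRer11 and the gene models of Ensembl 98, and quantified with RSEM 1.3.0. The deposited values are TPM computed by the authors, rounded to 2 decimals, and every library sums to 1000000 within 1 TPM. Because no read numbers accompany them, no counting interval is attached to a level. All sample columns were mapped by name to the 30 libraries. TPM values were tested on the log scale after adding a pseudocount of 0.1, so fold changes of low genes are understated. Genes with a mean TPM under 1 over the libraries of a fit were left out.

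Tests were two-sided and made with limma 3.58.1 under R 4.3.3, with moderated variances that follow a trend on the mean level. Benjamini-Hochberg adjustment ran over all genes tested, and 0.05 was the threshold. Other steps used Python 3.11.15, pandas 2.3.3 and matplotlib 3.10.9. The p-values measure only the spread between the libraries of successive hours. The fits were run before use on simulated data with independent errors around a constant mean. That setting lacks trends between hours, so it does not bear on p-values where hours stand in for replicates. The 8 genes and the lists of partners were chosen with earlier results of these data known. The text names the 8 genes, their paralogues, the 2 most similar genes of each, and from each list the 2 lowest and 2 highest alpha-amanitin slopes past the threshold. Alternatives were other pseudocounts, filters, time windows and limma without the trend, median-of-ratios scaling over maternal genes, the hour as a factor, pabpc1a and pabpc1b summed, and leaving out each library or hour. Sequences were not analysed here. A similar gene that the rule selects is not reported here.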

Additional observations from a re-analysis of the deposited data

Results flagged for a closer look

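For 4 of the 7 genes tested the course over time differed between the treatments in poly(A) libraries. The test was that of the difference in slope at 2 to 7 hpf (limma, log2 per hour, 6 hours in each treatment). Of all 15782 genes tested, 23.1% were called lower and 29.4% higher, so this count does not set the genes apart. The difference, alpha-amanitin minus wild type, was 1.51 for lsm14b, 1.43 for cpeb1b, 0.65 for pabpc1l and -0.55 for ybx1. The call of pabpc1l (adjusted p = 0.0446) held in 3 of the 6 fits with an hour left out, was lost at 0.30 without 7 hpf (adjusted p = 0.406) and at 0.41 after scaling to the maternal genes (adjusted p = 0.0953), while those of the other 3 genes held in all 6. The wild-type slopes of lsm14b, cpeb1b and pabpc1l were below 0 and that of ybx1 above 0, although pabpc1l peaked at 4 hpf. Without scaling, none of the 4 had a slope past the threshold within the 12 alpha-amanitin libraries. Scaling to the maternal genes called lsm14b (0.057, limma adjusted p = 0.0263) and pabpc1l (0.079, adjusted p = 0.0247) higher. pabpc1l was also called at 2 to 4.5 hpf (0.381, adjusted p = 0.0166), and cpeb1b without 2 hpf (0.077, adjusted p = 0.0460). No group held 4 or more libraries of the same hour, so no test for a single deviating library was made.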

How the results depend on the processing

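Tests rest on hours rather than replicates, TPM is relative, and low genes are bound by rounding to 2 decimals. Among summary counts recomputed under other settings, 109 stayed within 1.5 times their value and 17 did not, against 82 and 20 with a library or hour left out. Of the values of single genes under other settings, 248 kept direction and call, 17 lost the call, 8 gained it and 11 changed sign. No call changed with pabpc1a and pabpc1b summed. The cause of the changes below was not tested.

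Scaling over maternal genes turned 5 values: in alpha-amanitin against wild type pabpc1a to -0.29 and eif4enif1 to -0.26, in the slope difference eif4enif1 to -0.10, and in the poly(A) to Ribo-Zero ratio lsm14b to -0.61 and eif4enif1 to -0.87. It called 2 of the genes higher for the alpha-amanitin slope (lsm14b and pabpc1l), 2 lower for the slope difference, and 4 lower and 0 higher for the ratio. Over all genes it called 4491 higher and 4800 lower for the slope and 5847 lower for the slope difference. For the ratio it called 2872 lower and 2876 higher. With the alpha-amanitin slopes fitted at 2 to 4.5 hpf, cpeb1b was at -0.105 and pabpc1a at -0.179, 1 gene was higher (pabpc1l, 0.381) and 1837 genes in all were called. At 5 to 7.5 hpf ybx1 was at 0.055, pabpc1b at 0.059 and 2909 genes were called. With the hour as a factor, the average over 4 to 7 hpf called 0 of the genes lower, 1 higher (cpeb1b) and 2730 in all.

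With 2 and 3 against 5 and 6 hpf, Ribo-Zero called 2 of the genes lower, 1 higher and 4622 in all. The wild-type poly(A) libraries in place of Ribo-Zero called 1 higher (ybx1, 1.94) and put pabpc1a at -0.02. With 0 and 1 against 3 to 8 hpf, the ratio called 2 of the genes higher (lsm14b at 2.06 and pabpc1l) and 9908 in all, with eif4enif1 at -0.13. For this setting and for the poly(A) libraries, the number of these genes called lower is not given here. Without the trend in limma the ratio called 1 of the genes lower. For the poly(A) libraries and for limma without the trend, no count over all genes is given here. The 4622 and 9908 are not split by direction. These counts therefore do not set the genes apart from the rest.

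Leaving out 1 library or hour, the genes called higher were 0 to 1 for the alpha-amanitin slopes, 0 to 3 for alpha-amanitin against wild type, 2 to 3 for the slope difference, 2 to 3 for Ribo-Zero and 1 to 2 for the ratio. Those called lower were 0 to 1 for alpha-amanitin against wild type and 1 to 2 for the ratio. All genes called ranged from 1299 to 10145, 4339 to 8615 and 2415 to 9724 for alpha-amanitin against wild type, the slope difference and the ratio. For the alpha-amanitin slopes they ranged from 7922 to 8771, and for Ribo-Zero from 11976 to 13513. The slope of pabpc1a ranged from -0.011 to 0.047, and lsm14b in the ratio from -0.22 to 1.44.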
